A study of Arabidopsis thaliana with 26 samples.

Results

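Root hair growth genes were followed on all 26 microarrays of a series on the Arabidopsis seedling root. The set holds 7 genes, RHD6 (AT1G66470), RSL4 (AT1G27740), RHD2 (AT5G51060), EXPA7 (AT1G12560), EXPA18 (AT1G62980), PRP3 (AT3G62680) and COBL9 (AT5G49270). They were chosen by locus code, not by measured values. All 7 had a row in the deposited matrix, each with 1 of its 16384 probe sets.

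The arrays fall into 10 groups. Cells sorted for green fluorescent protein under the SCARECROW (SCR) promoter, labelled endodermis, came from seedlings moved at 2 days after germination to medium with 1 µM 2,4-D, a synthetic auxin, and were taken after 0 h (replicates 1, 3 and 5) and after 24 h, 48 h, 72 h and 96 h (replicates 2 and 3 at each time). Quiescent centre (QC) cells were sorted under the WOX5 promoter at 3 days after germination from jkd-4 mutants, from Col-0 wild type grown beside them, and from a wild type harvest made separately (3 arrays each). Excised meristems at 3 days after germination came from jkd and from wild type plants (3 arrays each). The genotype of the jkd arrays was read from titles and source names, since their descriptions cite another profile or a control role. JACKDAW (JKD), the gene mutated in jkd, encodes a zinc finger regulator of ground tissue identity. SCR is also active in the QC, so the SCR sort can hold QC cells, and a meristem holds all cell types of the tip. The labels do not say whether arrays of a group came from separate plants, so p-values reflect array-to-array spread alone, and that spread may be technical.

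Root hairs are tubes that grow out of some cells of the epidermis, not from the endodermis or the QC. RHD6, a basic helix-loop-helix (bHLH) transcription factor, acts before hair outgrowth and switches on related bHLH genes, among them RSL4, whose level sets how far the hair elongates. Growth then needs RHD2, also called RBOHC, an NADPH oxidase that makes reactive oxygen species at the tip, and wall proteins: the expansins EXPA7 and EXPA18, which loosen the wall, the proline-rich wall protein PRP3 and the COBRA-like protein COBL9.

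Signals are MAS5 intensities on a linear scale. Tests used log2(signal + 16), differences carry ± standard errors of the fit, and the threshold was an adjusted p of 0.05 (limma, Benjamini-Hochberg over all tested probe sets). The median signal per array lay between 57.45 and 102.6. JKD averaged 10.9 in jkd QC, against 83.8 in the WT QC grown beside it, and 10.3 in jkd meristems, against 186.2 in WT meristems. The 7 endodermis markers analysed here summed to 1115 to 1640 at 96 h, against 14479 to 24484 at 0 h. Among them SCR averaged 868.7 at 96 h, against 519.2 at 0 h, with overlap, and the others had lower means at 96 h. The 4 QC markers analysed here summed to 1123 to 1609 at 96 h, against 185.8 to 260.3 at 0 h. They moved unevenly: BBM averaged 920.9 at 96 h, against 22 at 0 h, PLT1 239.8, against 71.6, TEL1 64.8, against 5.9, and AGL42 140.3, against 118. At 0 h, replicate 5 stood apart from replicates 1 and 3. Its plastid probe sets averaged 10.01 on the log2 scale, against 7.08 and 7.67. The sorted arrays of the other groups lay at 8.99 to 10.3, nearer to replicate 5, and the meristems at 7.11 to 7.35. In replicate 5 the 4 non-hair epidermis markers (WER, MYB23, GL2 and EGL3) summed to 679.4, against 300.5 and 137.3. Its 3 root cap markers summed to 391.5, against 114 and 89.6, and its endodermis markers to 24484, against 14479 and 14671. Whether each transcript of the non-hair epidermis list, EGL3 among them, is confined to non-hair cells was not tested. Which 0 h arrays are typical was not tested. Values and counts that rest on 0 h are therefore also given without replicate 5, or it is said whether the calls held. In bulk RNA of this kind, fewer cells of a type and less RNA per cell cannot be told apart.

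**Figure D1:**
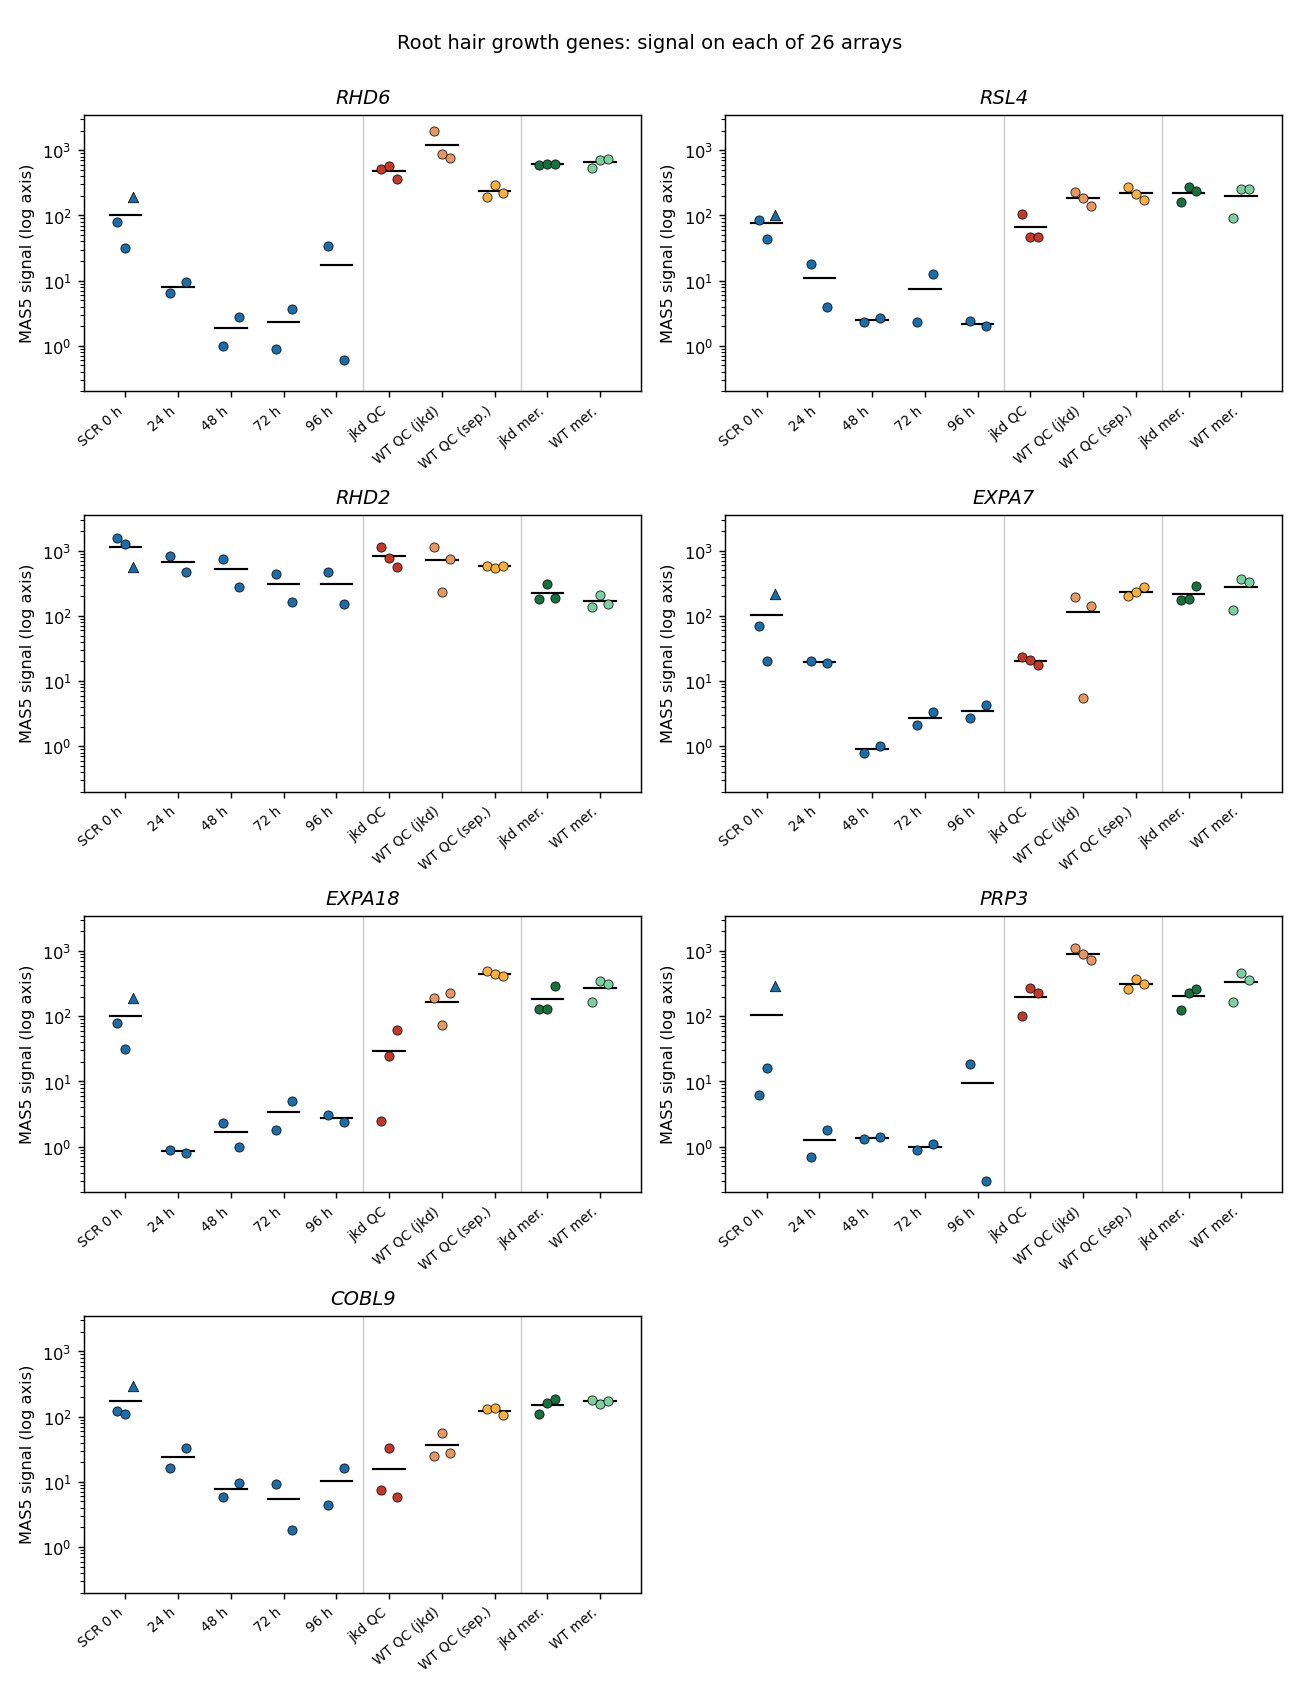
MAS5 signal of each root hair growth gene (log axis) on every array, by group, with points for arrays, black lines for group means and a triangle for 0 h replicate 5. In RSL4, EXPA7, EXPA18 and COBL9 the treated SCR arrays all lay below the lowest 0 h array.

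Across the series, RHD2 had a pattern unlike that of the other genes. Its mean was highest in SCR cells at 0 h (1129) and lowest in WT meristems (167). RHD6 had its highest mean in WT QC grown with jkd (1200), EXPA18 in the separate WT QC (452) and EXPA7 in WT meristems (275). In the order of the 10 group means, RHD6 in WT QC grown with jkd, EXPA18 in the separate WT QC and PRP3 in WT QC grown with jkd stood clear of the next group, with no overlap between arrays. The top groups of RSL4 (jkd meristem, 224, and separate WT QC, 219), of EXPA7, of COBL9 (SCR cells at 0 h, 175, and WT meristem, 172) and of RHD2 overlapped their neighbours in the order. For RSL4, RHD6, EXPA7, EXPA18 and PRP3 the 4 lowest group means were those of the 4 treated times, and for COBL9 jkd QC lay among them. For these 6 genes the 8 treated arrays reached at most the 39.6th percentile of their array's signals (RHD6 in 1 array at 96 h). RHD2 lay between the 62.8th and the 89.7th there, and levels of different probe sets are not compared. Such low MAS5 signals carry little information on level, and detection calls were not used here.

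The time series asked what changes in SCR-marked cells of seedlings on 2,4-D medium. The series holds no SCR cells kept without 2,4-D for 24 h to 96 h. Effects of 2,4-D, of seedling age and of the move to new medium cannot be told apart here. COBL9, RSL4, RHD6 and EXPA18 were lower than at 0 h at all 4 times, EXPA7 from 48 h on, and RHD2 at 72 h and 96 h. PRP3 did not pass at any time. Only COBL9 and RHD2 had a mean above the 30th percentile of signals that served as the filter in this fit. The other 5 were tested with no filter, over all 16384 probe sets, and their values below come from that fit.

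RHD6, the early bHLH regulator, had signals of 6.4 and 9.7 at 24 h, 1 and 2.8 at 48 h, 0.9 and 3.7 at 72 h, and 34.2 and 0.6 at 96 h, against 78.1, 31.5 and 192.5 at 0 h. At 24 h, 48 h and 72 h every array was below every 0 h array, while 1 array at 96 h overlapped the lowest of them. The difference was -2.03 ± 0.55 at 24 h (adjusted p 0.00852), -2.45 at 48 h, -2.42 at 72 h and -1.76 ± 0.55 at 96 h (adjusted p 0.0166). Without 96 h replicate 3 the last of these no longer passed (-0.96, adjusted p 0.271), and without 24 h replicate 2 the first did not (-1.93, adjusted p 0.0661). With quantile normalization neither passed (adjusted p 0.0526 at 24 h and 0.0856 at 96 h). RSL4, its target that paces elongation, had 18.1 and 3.9 at 24 h, 2.3 and 2.7 at 48 h, 2.3 and 12.6 at 72 h, and 2.4 and 2 at 96 h, against 83.9, 43.4 and 103.5 at 0 h. No treated array reached the lowest 0 h array. RSL4 fell by 1.78 ± 0.40 at 24 h (adjusted p 0.00264) and the difference at 96 h was -2.29 ± 0.40 (adjusted p 0.000359).

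RHD2, the NADPH oxidase, had 841.1 and 478.8 at 24 h, 755.1 and 278.6 at 48 h, 442 and 164.1 at 72 h, and 463.5 and 154.3 at 96 h, against 1559, 1265 and 563.1 at 0 h. Replicate 3 was the lower array at every treated time, and at 24 h and 48 h the groups overlapped. In the filtered fit the difference was -0.69 ± 0.63 at 24 h (adjusted p 0.383) and -1.14 ± 0.63 at 48 h (adjusted p 0.153). RHD2 fell at 72 h, with -1.87 ± 0.63 (adjusted p 0.0295), and at 96 h, with -1.88 ± 0.63 (adjusted p 0.0274). These 2 calls ended without 0 h replicate 1 (adjusted p 0.079 and 0.0742), without 0 h replicate 3 (0.0816 and 0.0769) or without replicate 3 of the treated time (0.225 and 0.237). Without 0 h replicate 5, the lowest 0 h array, RHD2 also passed at 48 h (-1.58, adjusted p 0.041). With the replicate number as a block RHD2 passed at 24 h too, though these numbers were not taken to pair arrays.

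The expansin genes reached the bottom of the signal range. EXPA18 had 0.9 and 0.8 at 24 h, 2.3 and 1 at 48 h, 1.8 and 5 at 72 h, and 3.1 and 2.4 at 96 h, against 78.3, 31.8 and 193 at 0 h. It was far below the 0 h arrays on every treated array, and the difference was -2.54 ± 0.47 at 24 h (adjusted p 0.000671) and -2.39 at 96 h (adjusted p 0.000877). EXPA7 had 20.2 and 19 at 24 h, 0.8 and 1 at 48 h, 2.1 and 3.4 at 72 h, and 2.7 and 4.3 at 96 h, against 70.9, 20.5 and 216.8 at 0 h. At 24 h its arrays nearly touched the lowest 0 h array, and the difference of -1.34 ± 0.55 did not pass (adjusted p 0.0596). It fell at 48 h, with -2.42 ± 0.55 (adjusted p 0.00255), and at 96 h, with -2.21 (adjusted p 0.00427).

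COBL9 had 16.2 and 32.6 at 24 h, 5.8 and 9.7 at 48 h, 9.2 and 1.8 at 72 h, and 4.4 and 16.4 at 96 h, against 121.2, 110.3 and 293.1 at 0 h. All treated arrays were below all 0 h arrays. In the filtered fit COBL9 fell at every time, with -2.14 ± 0.45 at 24 h (adjusted p 0.00165), -2.89 at 48 h, -3.05 at 72 h (adjusted p 0.000113) and -2.77 ± 0.45 at 96 h (adjusted p 0.000209). PRP3 was the wall gene whose 0 h arrays disagreed most. It had 0.7 and 1.8 at 24 h, 1.3 and 1.4 at 48 h, 0.9 and 1.1 at 72 h, and 18.6 and 0.3 at 96 h, against 6.1, 16 and 294.2 at 0 h. Replicate 5 alone held a high 0 h signal. The differences ran from -1.83 ± 0.93 (72 h, adjusted p 0.141) to -1.34 ± 0.93 (96 h, adjusted p 0.265). Without 0 h replicate 5 they ran from -0.65 at 72 h to -0.16 at 96 h (adjusted p 0.726 at 96 h), and without 0 h replicate 1 PRP3 passed at 24 h, 48 h and 72 h (adjusted p 0.0301, 0.0291 and 0.0285). It passed at these times with pseudocount 1 too (adjusted p 0.0392, 0.0413 and 0.033).

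In the filtered fit 1 of the 2 tested genes was lower at 24 h, where 27.5% of all tested probe sets were lower, and 1 of 2 at 48 h (27.2%). Both were lower at 72 h (26.4%) and 96 h (27.7%). With no filter, 4 of 7 were lower at 24 h, 5 of 7 at 48 h, 6 of 7 at 72 h and 6 of 7 at 96 h, where 28.4%, 29.8%, 28% and 29.4% of all 16384 probe sets were lower. Without 0 h replicate 5 these counts were 4, 6, 6 and 6 of 7, with COBL9, RSL4, RHD6 and EXPA18 among them at every time and EXPA7 from 48 h on. In that setting EXPA7 did not pass at 24 h (-0.66, adjusted p 0.189), and RHD6 at 96 h had -1.21 (adjusted p 0.0452). The filtered fit without that array called 5670, 5815, 5797 and 6152 of 11469 tested probe sets at the 4 times. Of these, 2566, 2729, 2831 and 3042 were higher. In a joint test over the times, COBL9 passed (adjusted p 0.000233) and RHD2 did not (adjusted p 0.0901), where 51.7% of tested probe sets passed. With no filter 5 of 7 passed (RSL4, RHD6, EXPA7, EXPA18 and COBL9), where 7568 of all 16384 probe sets did. RHD2 passed too with no filter when 0 h replicate 5 was left out, or with quantile normalization. The filtered joint test without 0 h replicate 5 called 6084 of 11469 tested probe sets.

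Between 96 h and 24 h neither of the 2 genes in the filtered fit passed. COBL9 differed by -0.62 ± 0.49 (adjusted p 0.604) and RHD2 by -1.19 ± 0.69 (adjusted p 0.444). In limma 0 had an unadjusted p under 0.05, plain eBayes also called 0, and 3.86% of tested probe sets passed. With the replicate number as a block RHD2 did pass, where 935 of 11469 tested probe sets passed. With no filter 0 of 7 passed, with EXPA7 at -0.87 ± 0.60 (adjusted p 0.606) and RSL4 at -0.52 ± 0.44 (adjusted p 0.702). The median of all tested probe sets was itself below 0 at each time, at -0.21 (24 h), -0.16 (48 h), -0.09 (72 h) and -0.11 (96 h). Quantile normalization moved it to 0.04, 0.08, 0.08 and 0.09, and the share of higher probe sets among those called at 24 h to 53.4%, against 43%.

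**Figure D2:**
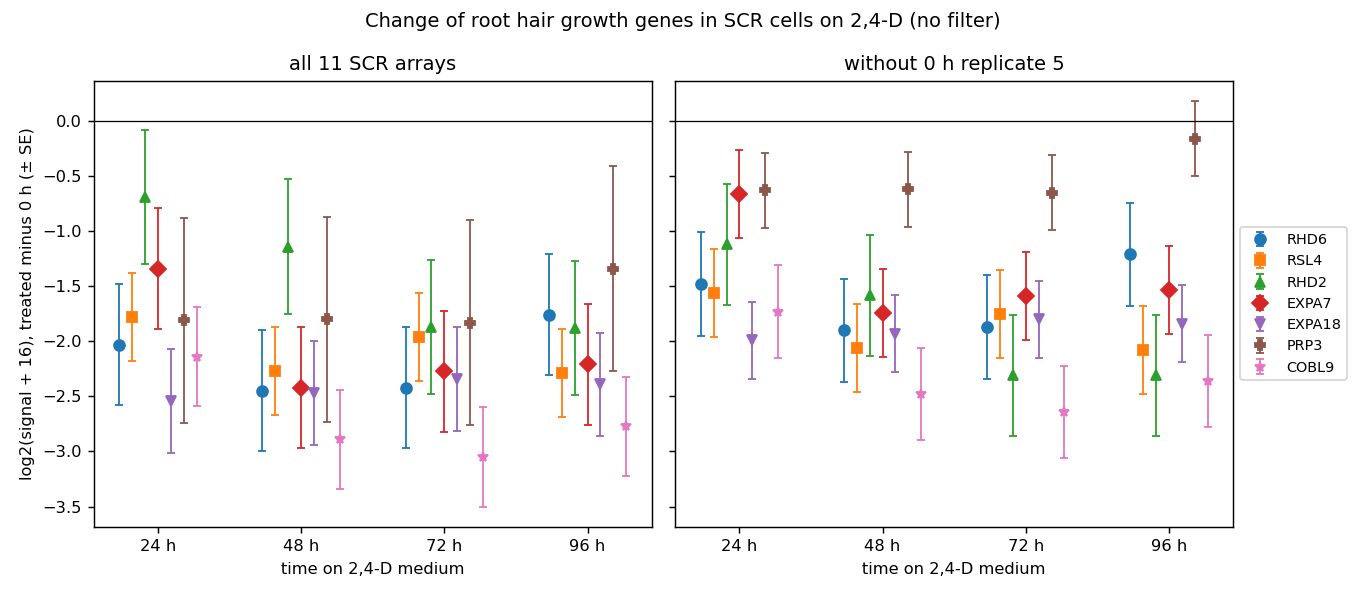
Difference of each gene in log2(signal + 16) between a treated time and 0 h (points, with bars for standard errors) in the fit with no filter, with all 11 SCR arrays on the left and without 0 h replicate 5 on the right. PRP3 moved most between the panels, to between -0.65 and -0.16 without that array.

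Other genes of the root hair moved in both directions, with more of them lower than higher. The same held over all probe sets in the fit with no filter. Of 44 other root hair genes listed, 34 were analysed here. A filter on the mean keeps a low gene only when 1 group is high, so the counts come from the fit with no filter. In it 13 of 34 were lower and 3 higher at 24 h, and 15 lower and 4 higher at 48 h. At 72 h 15 were lower and 3 higher, and at 96 h 13 lower and 2 higher. Over all 16384 probe sets 28.4%, 29.8%, 28% and 29.4% were lower at these times. The lower ones among the 34 numbered 12, 14, 10 and 12 without 0 h replicate 5. In the filtered fit without it, 5670, 5815, 5797 and 6152 of 11469 tested probe sets passed. Of these, 2566, 2729, 2831 and 3042 were higher. Among 11 wall genes, 5 were lower and 0 higher at 96 h (median -1.22, against -0.31 over all 16384 probe sets), and 4 were lower without 0 h replicate 5 (median -0.55, against -0.25). Among 22 genes of growth signalling, 7 were lower and 2 higher at 96 h (median -0.67), and 8 and 2 without that array. The filtered fit kept 20 of the 34, of which 8 were lower and 2 higher at 96 h, where 27.7% of tested probe sets were lower. Without 0 h replicate 5 it kept 17, of which 5 were lower. At 96 h, PER44, a peroxidase of root hairs, fell by 3.50 ± 0.42 (adjusted p 1.78e-05). RHS13, one of the ROOT HAIR SPECIFIC genes, had -2.56 ± 0.68, the proline-rich wall protein gene PRP1 -2.42 ± 0.54, and the phosphoinositide phosphatase gene RHD4 -1.86 ± 0.30. BST1 had -1.63 ± 0.46 and the actin gene ACT2 -1.56 ± 0.33, and both passed. These 6 genes also passed at 96 h without 0 h replicate 5 and with no filter, with PER44 at -3.21 and RHS13 at -1.86. ACT2 was also the 1 listed gene lower at 96 h than at 24 h, with a difference of -1.52.

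Relatives of RHD2 and COBL9 did not all move one way. In the oxidase family, RBOHD, best known from defence, passed only at 96 h of the 4 times, where it fell by 1.99 ± 0.43 (adjusted p 0.00192). RBOHE fell by 1.58 ± 0.34 at 96 h. In the COBRA family, COB, the founding member that orients wall growth, fell at 24 h (-1.61 ± 0.38) and at 96 h (-1.53 ± 0.38). COBL7 likewise fell at 24 h (-2.10 ± 0.39) and at 96 h (-1.70 ± 0.39). COBL1 had -0.84 ± 0.47 at 24 h (adjusted p 0.15) and rose by 1.88 ± 0.47 at 96 h (adjusted p 0.00417). With no filter 7 of 9 relatives of COBL9 were lower and 1 higher at 96 h, and 6 and 1 without 0 h replicate 5. Of 6 relatives of RHD2, 3 were lower at 96 h, and 2 without that array. Over all 16384 probe sets 29.4% were lower at 96 h with no filter. The calls named here for RBOHD, RBOHE, COB, COBL7 and COBL1 also held without 0 h replicate 5.

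Markers listed for cells next to the hair cell were measured on the same arrays. The 4 non-hair epidermis markers summed to 13.7 to 186.7 in the 8 treated arrays, against 300.5, 137.3 and 679.4 at 0 h. With no filter 3 of the 4 were lower at 96 h, where 29.4% of all 16384 probe sets were lower, and 2 without 0 h replicate 5. The 3 root cap markers summed to 59.9 to 201.3 in treated arrays, against 114, 89.6 and 391.5 at 0 h. None of them was lower at any time, and at 72 h and 96 h every array lay above 0 h replicates 1 and 3. At 96 h 1 of the 3 was higher without 0 h replicate 5. No marker was listed at 0. The part of other cell types in the falls of the hair genes was not tested.

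SCR cells were then set against QC cells of the separate harvest, the cell type that the series' title names as the end point. Seedling age differed between these groups as well, with QC cells taken at 3 days after germination. At 0 h, 5 of the 7 genes were lower in SCR cells than in the separate WT QC, where 25.7% of tested probe sets were lower. EXPA18, with its 3 arrays at 31.8 to 193 at 0 h, had 502.1, 441.2 and 412.7 in the separate WT QC, with no overlap, and a difference of -2.25 ± 0.41 (adjusted p 0.000293). RSL4 had 43.4 to 103.5 at 0 h, below 271.5, 213.5 and 172.7 in the QC (-1.38 ± 0.35, adjusted p 0.00408). PRP3 had 6.1, 16 and 294.2 at 0 h, against 260, 377.2 and 307.5 in the QC, and 0 h replicate 5 fell within that range (-2.44 ± 0.74, adjusted p 0.0145). Without that array its difference was -3.62 (adjusted p 5.2e-07).

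EXPA7 had 20.5 to 216.8 at 0 h, against 202.9, 232 and 273.8 in the QC (-1.47 ± 0.47, adjusted p 0.0159) and RHD6 had 31.5 to 192.5 at 0 h, against 192.5, 296.7 and 220.5 in the QC (-1.35 ± 0.48, adjusted p 0.0263). Their highest 0 h array, replicate 5, overlapped or equalled the lowest QC array. Without 0 h replicate 3 neither passed (adjusted p 0.106 and 0.156), without 0 h replicate 1 RHD6 and PRP3 did not (0.0615 and 0.0517), and without 0 h replicate 3 PRP3 did not (0.0618). RHD6 also failed without QC replicate 2 (0.0927) or 3 (0.0565), and EXPA7 without QC replicate 3 (0.0562). With pseudocount 1 none of the 5 passed, with RSL4 at an adjusted p of 0.0887, EXPA7 at 0.0667 and RHD6 at 0.207, and with EXPA18 and PRP3 under the filter. RHD2 had 0.84 ± 0.51 at 0 h against the QC (adjusted p 0.189) and COBL9 had 0.33 ± 0.37 (adjusted p 0.473). The same 5 genes were lower without 0 h replicate 5, with RSL4 at -1.59, RHD6 at -1.90, EXPA7 at -2.15 and EXPA18 at -2.80, and RHD2 was higher in SCR cells by 1.27 (adjusted p 0.0392). With no filter they passed as well, where 19.3% of all 16384 probe sets were lower.

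After 96 h of 2,4-D, COBL9 joined the genes that were lower than in the QC. Of the 7 genes, 6 were lower at 96 h than in the separate WT QC, where 16.5% of tested probe sets were lower. Of these 6, 5 fell under the filter in the fit of SCR arrays alone and were kept here through the QC arrays. With no filter the count was 6 of 7 too, where 12.1% of all 16384 probe sets were lower. EXPA18 differed by -4.64 ± 0.46 (adjusted p 1.79e-06), EXPA7 by -3.68 ± 0.53 (7.01e-05) and RSL4 by -3.67 ± 0.40 (4.47e-06). PRP3 differed by -3.79 ± 0.82 (adjusted p 0.00406), RHD6 by -3.11 ± 0.53 (0.000383) and COBL9 by -2.43 ± 0.41 (0.000331). In these 6 genes no 96 h array reached the lowest QC array. RHD2 had 463.5 and 154.3 at 96 h, against 584.5, 542.4 and 592.3 in the QC, and did not pass (-1.04 ± 0.57, adjusted p 0.191). Without 96 h replicate 3 PRP3 did not pass either (-3.24, adjusted p 0.0507).

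The other root hair genes were counted with no filter here as well. Of 34, 19 were lower and 1 higher at 0 h than in the separate WT QC (median -1.18, against 0.19 over all 16384 probe sets). Of all 16384 probe sets 19.3% were lower. Leaving out 0 h replicate 5 gave 22 of 34 lower and 1 higher. The filtered fit without that array called 6177 of 11469 tested probe sets, 2989 of them higher. At 96 h 26 of 34 were lower and 0 higher (median -2.00, against -0.05), where 12.1% of all 16384 were lower. COW1, a phosphatidylinositol transfer protein needed for hair tip growth, differed by -4.34 ± 0.43 at 0 h and by -3.75 ± 0.48 at 96 h. RHS12 differed by -4.13 ± 0.41 at 0 h, and PER44 by -4.87 ± 0.37 at 96 h. RHS19 had -3.53 ± 0.65 at 0 h and -4.70 ± 0.73 at 96 h. The values at 0 h without replicate 5 were -4.85 for COW1, -4.21 for RHS12 and -4.58 for RHS19. WER, a non-hair epidermis marker that specifies cells without hairs, had 38.5 to 405.5 at 0 h, against 1374 to 1509 in the separate WT QC. MYB23 had 42.2 to 143.6, against 169.3 to 198.6, EGL3 24.5 to 43.6, against 59.1 to 84, and GL2 32.1 to 86.7, against 74.5 to 99.5, with overlap. In the filtered fit 1 of 3 tested markers of this list was lower at 0 h. The 4 non-hair epidermis markers summed to 13.7 to 91.1 at 96 h and to 1702 to 1882 in the separate WT QC. The 3 root cap markers summed to 140.3 to 201.3 at 96 h and to 1080 to 1239 in that QC. The part of epidermis and root cap cells in these differences was not tested.

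The sorted QC was also set against whole WT meristem, once for each wild type harvest. QC cells were sorted and meristems were not, so cell type and sorting cannot be told apart here. The harvests share the meristem arrays. RHD2 was the gene that was higher in the QC in both, and the other 6 genes gave no common call. RHD2 had 1139, 237 and 752 in WT QC grown with jkd and 584.5, 542.4 and 592.3 in the separate WT QC, against 138, 211 and 151 in WT meristem. Every QC array was above every meristem array. The difference was 1.75 ± 0.47 for QC grown with jkd (adjusted p 0.0112) and 1.71 ± 0.19 for the separate QC (adjusted p 3.87e-06). The first of these did not pass without WT QC replicate 3 (1.59, adjusted p 0.0555) or WT meristem replicate 1 (1.64, adjusted p 0.0505).

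RHD6 had 1976, 874 and 749 in WT QC grown with jkd and 192.5, 296.7 and 220.5 in the separate WT QC, against 531, 712 and 735 in WT meristem. QC grown with jkd was thus above the meristem range and the separate QC below it. The differences were 0.73 ± 0.34 (adjusted p 0.0985) and -1.43 ± 0.20 (adjusted p 3.32e-05). PRP3 had 1121, 889 and 732 in WT QC grown with jkd, above all meristem arrays at 168, 470 and 355 (1.51 ± 0.34, adjusted p 0.00479). In the separate QC it lay within the meristem range (0.03 ± 0.29, adjusted p 0.941).

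COBL9 had 24.8, 56.9 and 27.8 in WT QC grown with jkd, far below 179.8, 159 and 177 in WT meristem (-1.89 ± 0.30, adjusted p 0.000698). In the separate QC, at 130, 134.6 and 106.1, it also lay below each meristem array, and the difference of -0.43 ± 0.19 did not pass (adjusted p 0.0693). EXPA18 had 502.1, 441.2 and 412.7 in the separate QC, above 163, 345 and 312 in WT meristem (0.75 ± 0.24, adjusted p 0.0139). That call ended without QC replicate 1 (0.68, adjusted p 0.063) and in a fit of all 26 arrays (adjusted p 0.222). In WT QC grown with jkd EXPA18 had 192, 72.7 and 229 (-0.74 ± 0.41, adjusted p 0.157).

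EXPA7 was uneven in WT QC grown with jkd, at 194, 5.46 and 140.1, against 121, 374 and 328 in WT meristem (-1.57 ± 0.75, adjusted p 0.105), and had -0.08 ± 0.31 in the separate QC (adjusted p 0.848). Without WT QC replicate 1 the first value was -2.19 (adjusted p 0.0474), and without WT meristem replicate 1 the second was -0.55 (adjusted p 0.0274). RSL4 did not pass in either harvest, with -0.01 ± 0.37 (adjusted p 0.979) and 0.22 ± 0.31 (adjusted p 0.564). In counts, 2 of 7 genes were higher and 1 lower in QC grown with jkd, where 21.8% of tested probe sets were higher and 27.8% lower. In the separate QC 2 of 7 were higher and 1 lower, where 27% were higher and 31.3% lower.

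The direct comparison of the wild type QC harvests gave 4 calls among the 7 genes. RHD6 was higher in QC grown with jkd than in the separate QC by 2.15 ± 0.33 (adjusted p 0.000608) and PRP3 by 1.48 ± 0.25 (adjusted p 0.00102), where 10.1% of tested probe sets were higher. EXPA18 (-1.50 ± 0.35, adjusted p 0.00761) and COBL9 (-1.45 ± 0.35, adjusted p 0.00954) were lower, where 13% were lower. COBL9 did not pass without separate QC replicate 1 (-1.42, adjusted p 0.0573) or 2 (-1.40, adjusted p 0.0595). RSL4 (-0.23 ± 0.28, adjusted p 0.605), EXPA7 (-1.49 ± 0.65, adjusted p 0.117) and RHD2 (0.05 ± 0.42, adjusted p 0.95) did not pass. EXPA7 passed without WT QC replicate 1 (-2.11, adjusted p 0.0255), and RHD2 passed without WT QC replicate 2 (0.68, adjusted p 0.0265).

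Cell type markers were set side by side for the harvests. Between them 4 of 7 endodermis markers, 2 of 4 QC markers and 2 of 3 root cap markers were lower in WT QC grown with jkd than in the separate QC, and 0 of 4 non-hair epidermis markers. Of all tested probe sets 13% were lower. The endodermis markers summed to 1167 to 1657 in WT QC grown with jkd, against 2469 to 3497 in the separate WT QC, and the QC markers to 642.5 to 1167, against 1424 to 1878. The root cap markers summed to 269 to 390.2 in WT QC grown with jkd, against 1080 to 1239 in the separate WT QC and 1210 to 1759 in WT meristem. The non-hair epidermis markers summed to 1502 to 3033 in WT QC grown with jkd, against 1702 to 1882 in the separate WT QC, with overlap. WT meristem had 2283 to 3100. Files of the separate QC carry 1 decimal and those of QC grown with jkd and of the meristems 2, so a comparison across them also crosses this split in the files. The part of sorting, harvest and processing in these differences was not tested.

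**Figure D3:**
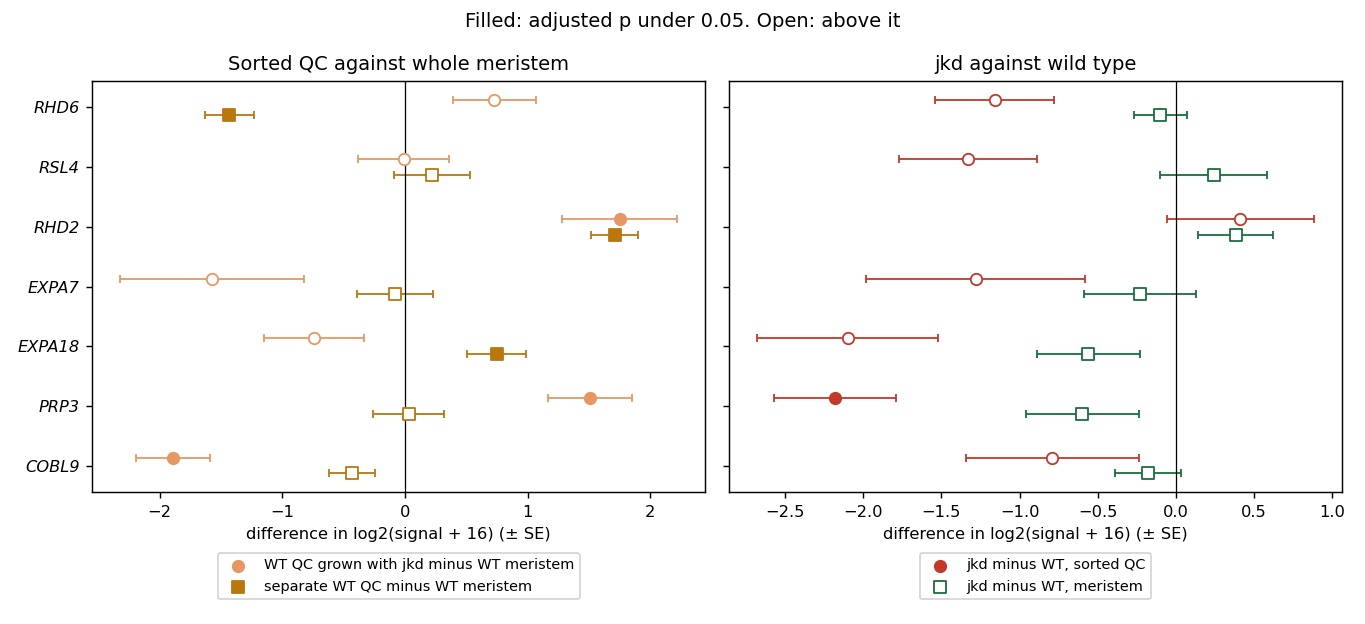
Difference in log2(signal + 16) with standard errors for sorted QC minus WT meristem (left, circles for QC grown with jkd and squares for the separate QC) and for jkd minus wild type (right, circles for QC and squares for meristem), filled where the adjusted p was under 0.05. RHD2 lay at 1.75 and 1.71 in the QC harvests, and PRP3 in jkd QC, at -2.18, is the filled point on the right.

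Among the other root hair genes the separate QC stood well above the meristem. There 20 of 34 were higher and 3 lower (median 0.86, against -0.08 over all tested probe sets). Of all tested probe sets 27% were higher and 31.3% lower. PRP1 differed by 2.24 ± 0.24, COW1 by 2.09 ± 0.34, MRH2, a kinesin of root hairs, by 1.92 ± 0.26 and RHS12 by 1.66 ± 0.33. In QC grown with jkd 6 of 33 were higher and 5 lower (median 0.26, against -0.15), where 21.8% of tested probe sets were higher and 27.8% lower. MRH2 differed there by 2.84 ± 0.26, PRP1 by 1.61 ± 0.40 and TIP1, an S-acyl transferase of hair growth, by -1.42 ± 0.29. Between the harvests 1 of 34 was higher in QC grown with jkd and 8 were lower, where 10.1% of tested probe sets were higher and 13% lower. Among the 8 were XTH13, an enzyme that remodels xyloglucan, at -1.88 ± 0.37, and RHD4 at -1.61 ± 0.26.

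**Figure D4:**
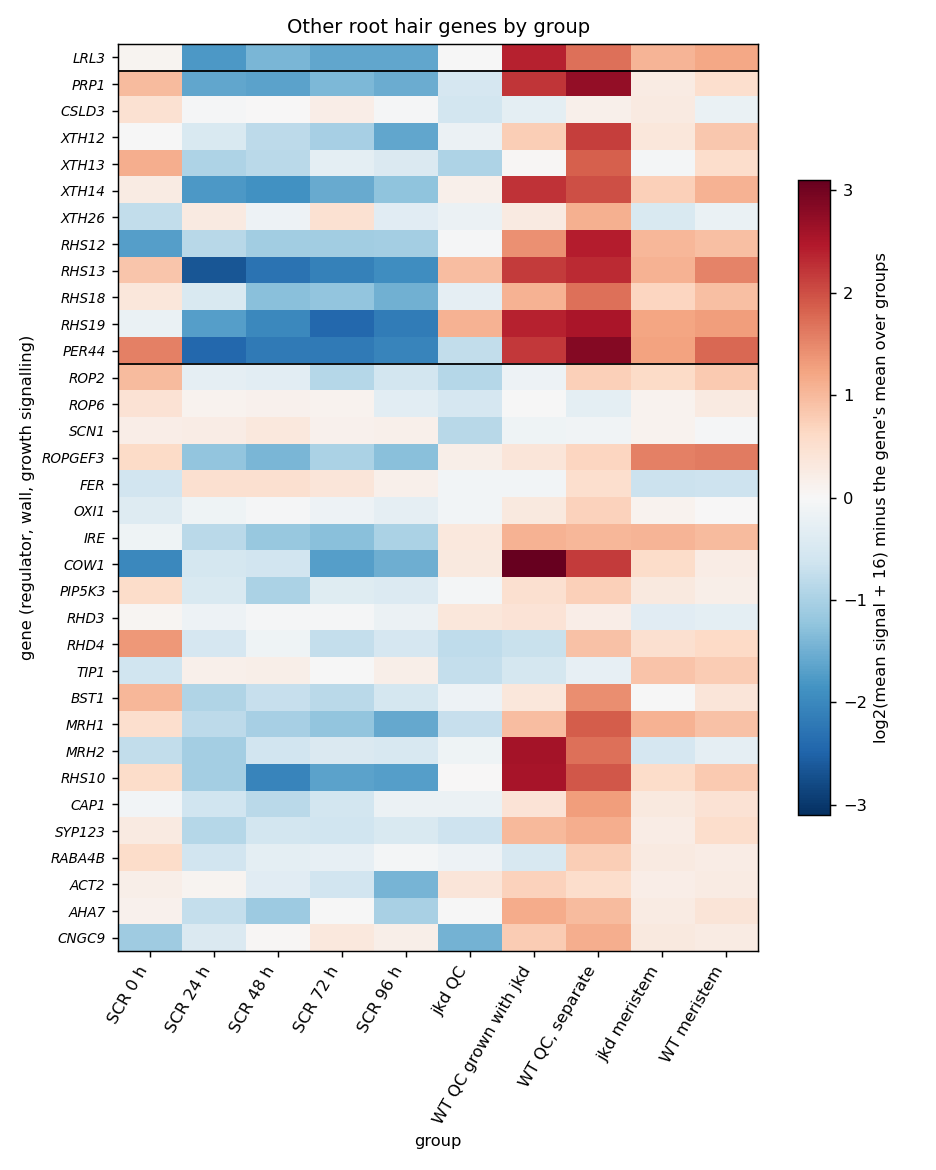
Group means of log2 signal for 34 other root hair genes, each relative to the gene's mean over the 10 groups, in rows for regulators, wall genes and growth signalling, and in columns for groups. The separate WT QC column is above the mean for most wall genes, and 20 of 34 genes were higher there than in WT meristem by the test.

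SCR cells at 0 h were also compared with WT meristem, which crosses the files with 1 and 2 decimals. Cell type, sorting and seedling age (2 days against 3 days after germination) differ here as well, and they cannot be told apart. RHD2 was higher in SCR cells, with all 3 arrays (563.1 to 1559) above all meristem arrays (138 to 211), by 2.55 ± 0.38 (adjusted p 0.00101), where 27.3% of tested probe sets were higher. RHD6 (-2.78 ± 0.48, adjusted p 0.00201), EXPA18 (-1.50 ± 0.52, adjusted p 0.0402) and RSL4 (-1.16 ± 0.42, adjusted p 0.046) were lower, where 27.9% were lower. PRP3 (-2.41 ± 0.91, adjusted p 0.0524), EXPA7 (-1.55 ± 0.67, adjusted p 0.0805) and COBL9 (-0.10 ± 0.35, adjusted p 0.821) did not pass. Without 0 h replicate 5, PRP3 (-3.59, adjusted p 4.91e-05) and EXPA7 (-2.23, adjusted p 0.00295) passed too. EXPA18 and RSL4 did not pass without 0 h replicate 1 or 3, or without WT meristem replicate 2 or 3 (adjusted p 0.0807 to 0.151), and RSL4 just missed with no filter (0.0502). The oxidase relative RBOHD was 5.09 ± 0.36 higher in SCR cells (adjusted p 6.05e-05). With no filter 2 of 34 other root hair genes were higher and 5 lower. Of all 16384 probe sets 8656 passed in that fit, 5179 of them higher. Without 0 h replicate 5, 2 of the 34 were higher and 14 lower. In the filtered fit without that array 7479 of 11469 tested probe sets passed, 3503 of them higher. COW1 had -2.25 ± 0.56, and -2.76 without that array.

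The effect of jkd was asked in sorted QC and in meristem, and of the 7 genes only PRP3 passed, in QC. PRP3 had 102.6, 272 and 225 in jkd QC, against 1121, 889 and 732 in WT QC. The groups were well apart, and PRP3 fell by 2.18 ± 0.39 (adjusted p 0.0492). That value sat at the threshold. It did not pass when any 1 of 5 of the 6 arrays was left out (adjusted p 0.103 to 0.2), and passed without jkd QC replicate 2 (0.0466). It did not pass with pseudocount 1 (0.0787) or with plain eBayes (0.19). EXPA18 had 2.49, 24.8 and 60.6 in jkd QC, against 192, 72.7 and 229 in WT QC, with no overlap (-2.10 ± 0.58, adjusted p 0.227).

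The regulators RSL4 and RHD6 did not pass, though their arrays did not overlap. RSL4 had 105.7, 46.5 and 47.4 in jkd QC, against 230.2, 184 and 141 in WT QC (-1.33 ± 0.44, adjusted p 0.329). RHD6 had 521, 568 and 368 in jkd QC, against 1976, 874 and 749 in WT QC (-1.16 ± 0.38, adjusted p 0.323). For each the highest jkd array was below the lowest WT array. EXPA7 had 23.5, 20.8 and 17.7 in jkd QC and lay inside the wide WT range of 5.46 to 194 (-1.28 ± 0.70, adjusted p 0.621). COBL9 had 7.47, 33.4 and 5.96, against 24.8, 56.9 and 27.8 in WT QC (-0.79 ± 0.55, adjusted p 0.71). RHD2 had 1153, 771 and 556.5 in jkd QC, against 1139, 237 and 752 in WT QC, with overlap (0.41 ± 0.47, adjusted p 0.836).

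In jkd QC 1 of 7 genes passed, where 0.105% of tested probe sets passed in either direction and 0.0174% were lower. Without regard to a test, 4 of 7 (RHD6, RSL4, EXPA18 and PRP3) had all jkd arrays below all WT arrays, where 9.47% of tested probe sets did. Of 32 other root hair genes 0 passed in limma, 13 had an unadjusted p under 0.05 and plain eBayes called 0. Of all 11469 tested probe sets 1036 had an unadjusted p under 0.05, and plain eBayes called 2. The median of the 32 genes was -0.83, against -0.10 over all tested probe sets. The median signal per array was 65.5 to 67.5 in jkd QC and 74.8 to 85.4 in WT QC. The non-hair epidermis markers summed to 1636 to 1720 in jkd QC, against 1502 to 3033 in WT QC, and the root cap markers to 258.2 to 287.8, against 269 to 390.2. The QC markers summed to 519.9 to 1361 in jkd QC, against 642.5 to 1167 in WT QC. These 3 lists overlapped. The 7 endodermis markers summed to 398.8 to 549 in jkd QC, against 1167 to 1657 in WT QC, and the 2 stele markers to 31.1 to 66.9, against 68.8 to 194.4, with no overlap in either. Of all these markers 0 passed the test. Their part in the lower hair genes was not tested.

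In meristem the differences of the 7 genes lay between -0.60 and 0.38. PRP3 had 124, 225 and 266 in jkd meristem, against 168, 470 and 355 in WT meristem, with overlap (-0.60 ± 0.36, adjusted p 0.805). EXPA18 had -0.56 ± 0.33 and RHD2 had 0.38 ± 0.24, while RSL4 (0.24 ± 0.34), EXPA7 (-0.23 ± 0.36), COBL9 (-0.18 ± 0.21) and RHD6 (-0.10 ± 0.17) lay nearer to 0. RHD6 was the most even gene, at 603, 609 and 607 in jkd meristem and 531 to 735 in WT meristem. In limma 0 of 7 passed, 0 had an unadjusted p under 0.05 and plain eBayes called 0, where 0.933% of tested probe sets passed. Of 33 other root hair genes 0 passed, with 2 at an unadjusted p under 0.05 and 0 by plain eBayes. Of all 11469 tested probe sets 922 had an unadjusted p under 0.05, and plain eBayes called 108.

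The difference of the jkd effect between QC and meristem was tested on the 12 arrays. It was -1.58 ± 0.56 for PRP3 (adjusted p 0.522), -1.57 ± 0.55 for RSL4 (adjusted p 0.507), -1.54 ± 0.71 for EXPA18 (adjusted p 0.616) and -1.06 ± 0.44 for RHD6 (adjusted p 0.573). In limma 0 of 7 passed, 4 had an unadjusted p under 0.05, and plain eBayes called 0. Over all tested probe sets 0% passed, 909 had an unadjusted p under 0.05, and plain eBayes called 0.

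Across the 26 arrays the 6 genes other than RHD2 varied together, with Pearson r between 0.5 and 0.94 in 15 pairs (median 0.81). RHD2 had r between -0.19 and -0.05 with each of them. These arrays share tissue, harvest and treatment, so the values describe the series and are not independent. The 8 treated SCR arrays had low signals in all 6 genes, and r was not computed without those arrays. Between the wild type QC harvests, RHD6 and PRP3 were higher in QC grown with jkd, and EXPA18 and COBL9 were lower. The probe sets most like each gene over the 26 arrays, by r of log2(signal + 16), were named for all 7. RHD6 was most like UGT72E2 (0.97), AIR1 (0.956) and COB (0.952), and PRP3 most like RHS19 (0.94), AIR1 (0.937) and RHD6 (0.937). RSL4 was most like PPa5 (0.951), CSLA14 (0.951) and AT4G30410 (0.945). EXPA7 was nearest to MES15 (0.932), AT5G44770 (0.931) and AT4G11210 (0.93), and EXPA18 to UMAMIT4 (0.942), AT1G66800 (0.936) and the peroxidase PER44 (0.925). COBL9 was nearest to UDG4 (0.953), AT2G47540 (0.944) and the auxin influx carrier gene LAX3 (0.939). RHD2 had weaker neighbours, AT1G72510 (0.898, on a probe set that may cross-hybridise), NDB2 (0.864) and CAD5 (0.862).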

How the data were processed

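RNA of sorted cells and excised meristems was hybridised to arrays, and the authors deposited linear MAS5 signal intensities per probe set, per the submitters' processing notes. Version, scaling target and detection calls: not given in the sources used here. Amplification used an Ovation kit, per the labels' protocols, and low signals limit precision, as does the number of arrays. Both deposited tables held equal numbers. Symbols came from RefSeq's TAIR10.1 table. No further normalization was applied. Values were tested as log2(signal + 16) with limma 3.58.1 (eBayes with trend and robust) in R 4.3.3, over the 11469 of 16384 probe sets whose mean reached the 30th percentile of the fit, with Benjamini-Hochberg adjustment at 0.05. Times shared 1 fit of 11 arrays, and 14 arrays where the separate QC was added; the other comparisons used 6 arrays, and the jkd effect between tissues 12. The fit was tested on simulated data. Python 3.11.15, pandas 2.3.3 and matplotlib 3.10.9 were used for counts and figures. Alternatives were pseudocounts 1 and 64, no filter, a filter at the 50th percentile, quantile normalization, plain eBayes, 1 fit of all 26 arrays, a replicate block and leaving out each array. Settings that join no filter with another choice, and list counts with no filter or without 0 h replicate 5, were chosen after seeing the data. Members and lists were chosen with earlier results of these data known. All 7 genes were named in each comparison, with up to 6 other root hair genes past the threshold by largest difference, listed relatives, and the 3 probe sets of highest r per gene. Among the listed markers, WOX5, GL3, CASP1, ESB1, FEZ, WOL, APL and SUC2 were not analysed here.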

Additional observations from a re-analysis of the deposited data

How the results depend on the processing

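Of the alternatives for single genes, 1351 kept their side of the threshold, 55 lost and 38 gained the threshold, and 0 called values reversed. Changes of sign in values that did not pass were not counted as reversed. RHD2 in jkd QC, for example, went from 0.41 to -0.22 without WT QC replicate 2. Counts of the 7 genes past the threshold moved with the filter on low values and in a fit of all 26 arrays. At 24 h the count was 1, with 4 under no filter, 0 at the 50th percentile filter and 5 in a fit of all 26 arrays. At 48 h it was 1, with 5, 0 and 6 under the same settings, at 72 h 2, with 6, 1 and 7, and at 96 h 2, with 6, 1 and 6. The joint test gave 1, with 5 under no filter, 0 at the stricter filter, 6 in the fit of all arrays and 2 under quantile normalization. The 50th percentile filter also left 0 genes called for 0 h and for 96 h against the separate QC, because it kept fewer of them for testing. With pseudocount 1 the count for 0 h against the separate QC was 0, against 5 (RSL4 -1.56, adjusted p 0.0887; EXPA7 -1.76, adjusted p 0.0667), and for jkd QC 0, against 1 (PRP3 -2.28, adjusted p 0.0787). In jkd QC plain eBayes called 0 and the fit of all arrays 3 (PRP3, EXPA18 and RSL4). The cause was not tested, apart from the smaller number of genes tested under a filter.

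Leaving out each array in turn gave 1 to 2 genes in the joint test and at each time after 24 h (48 h, 72 h and 96 h), 2 to 6 for 0 h against the separate QC, 2 to 6 for 0 h against WT meristem, and 0 to 1 for jkd QC. Replicate numbers were not taken to pair the samples: deviations of same-numbered arrays correlated between -0.131 and 0.058 outside the treated times and between -0.03 and 0.177 among the treated times, not above 0.1 in every pair. With the replicate number as a block the count was 2 at 24 h, 2 at 48 h, 2 in the joint test and 1 for 96 h against 24 h, where it was 0 without the block. RHD2 was the gene gained there, with -1.60 at 24 h (adjusted p 0.0042) and -1.19 for 96 h against 24 h (adjusted p 0.0205), where 935 of all probe sets passed, against 443 without the block. The number of genes called stayed within 1.5 times of the main count in the other comparisons under the replicate block. Signals near the bottom of the range limit what the low treated arrays can show.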
